A study of Rattus norvegicus with 6 samples.

Results

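Snord115 is a family of C/D-box small nucleolar RNAs (snoRNAs) that is annotated as a tandem array in the Prader-Willi syndrome (PWS) imprinted domain. All genes of the deposited table whose symbol begins with Snord115, in either case, were taken as its members, which gave 59 copies of 32883 genes. The copies share 1 symbol and are told apart here by their Ensembl identifiers. The level of each copy was measured by small RNA sequencing of 6 clonal lines of INS-1 cells, which derive from a rat insulinoma and serve as a β-cell model, with 1 library per line.

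The parental cells secrete rat and human insulin and carry a mouse Ins2 C-peptide-mCherry reporter, and all 6 lines were grown at 7.5 mM glucose. Per the study, control line 16 expressed little of its human insulin transgene. The 3 control lines (5-9, 2 and 16) have lost the PWS domain from the maternal chromosome alone, where it is silent, and lines 2 and 16 were isolated from line 5-9 after a second transfection. The 3 PWS lines (3, 19-1 and 19-4) carry the same maternal deletion of line 5-9 and in addition a deletion of the active paternal copy. Lines 19-1 and 19-4 are subclones of 1 edited line, and line 3 has a larger paternal deletion with another proximal breakpoint. The PWS group therefore holds fewer independent paternal edits than lines, and p-values below measure the spread between clonal lines.

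C/D-box snoRNAs are short RNAs that carry the conserved boxes C and D, assemble with fibrillarin, NOP56, NOP58 and a small RNA-binding protein (SNU13), and in most cases guide 2′-O-methylation of ribosomal or spliceosomal RNA by base pairing next to box D. Snord115 and its neighbor Snord116 are instead orphan or mRNA-directed members, processed from introns of a long transcript that starts at Snurf-Snrpn and runs toward, and antisense to, Ube3a, on the paternal chromosome. Snord115 is best known from brain, and it holds a stretch complementary to the mRNA of the serotonin receptor 2C gene Htr2c.

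No full Snord115 sequence was analysed here, but the study's primers for the family and its guide RNAs give the boxes of the RNA and the distal ends of the deletions beyond the array. The primers are shown because they hold both conserved boxes of the RNA that was counted. The forward primer carries box C in capitals (TGATGA, from base 6 of 21), and the reverse complement of the reverse primer carries box D in capitals (CTGA, from base 13 of 20).
Snord115 forward primer: gtcaaTGATGAcaacattaag
Snord115 reverse primer, reverse complement: aataggattacgCTGAggcc
Searched on both strands, TGATGA occurred in 5 (3.65%) and CTGA in 39 (28.5%) of the 137 primers of the same primer list, so the shorter motif alone is a common match. The guides are shown because they cut between Snord115 and Ube3a, on the far side of the array, so that, by the study's design, the whole array lies inside both deletions. The 10 bases next to the PAM are in capitals at the 3′ end of each 20-base spacer.
sgRNA3, distal end of the maternal deletion: tacttatgacAATTAACCTC
sgRNA79-1, distal end of the paternal deletion, internal to the sgRNA3 site: gccaggtacaGGTAGTTCAC

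Library depth ranged from 7373691 to 16480475 reads assigned to genes, with control line 2 (7634142) and PWS line 19-4 (7373691) the shallowest. Values are normalized reads, that is, reads divided by a size factor of the library, and the whole reads behind each value were recovered. Of 17 listed β-cell markers, 16 were in the table and had a read in some line (Mafa in line 3 alone, and Ins2 in all but line 19-4), with a summed level of 1975464 to 3437069 normalized reads in control and 2129754 to 2925438 in PWS lines. This sum was carried mainly by Mir7a1, Mir7a2 and Mir375. Mir184, Mir204, Mir200b, Mir141 and Ins1 were also above the blood marker Mir142 in every line. Chga, Chgb, Iapp, Ins2, Pdx1, Nkx6-1, Mafa and Pcsk1 were at or below it in every line. Summed markers of other cell types were far lower than the β-cell sum. In control and PWS lines, respectively, blood markers (5 of 5 in the table) reached 47.3 to 77.1 and 50.4 to 80.4, and fibroblast markers (4 of 7 in the table, with Mir145, Col1a1 and Col3a1 at 0) 13.1 to 39.4 and 35.7 to 48.8. Exocrine markers (4 of 4, with Cela1, Prss1 and Cpa1 at 0) reached 1.31 to 10.8 and 1.05 to 5.27, whereas muscle and hepatocyte markers (2 of 4 and 1 of 2 in the table) did not exceed 2.61 and 1.31 in control lines and were at 0 in PWS lines.

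Most of the array was weakly detected or silent even where the paternal copy was intact. Of the 59 copies, 36 had at least 1 read in some line and 23 had none in any of the 6. In control lines 5-9, 2 and 16, respectively, 31, 18 and 29 copies had a read, and 17, 12 and 19 had 3 reads or more. The remaining 28, 41 and 30 copies of these lines were at 0 reads, which allows a level of up to 2.95, 3.92 and 2.31 normalized reads per copy (the level of 3 reads). The 23 silent copies were thus not detectable at this depth rather than shown to be absent. The deposited values also do not show how a read that aligns to several copies was placed. Which copies count as silent or detected may depend on that placement. Intervals and limits given here cover counting error only.

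The copies detected were largely shared between control lines. A read was found in all 3 control lines for 17 copies, in 2 of them for 8 and in 1 for 11. Lines 5-9 and 16 shared 25 detected copies, and each of them shared 17 with line 2. Of the 18 copies detected in line 2, the shallowest control library, 1 (ENSRNOG00000052722, with 1 read, named after its value was seen) had no read in the other 2. Across the 59 copies, which share their library and its depth, the rank correlation of levels (Spearman's rho) was 0.72 between lines 5-9 and 2, 0.83 between lines 5-9 and 16, and 0.78 between lines 2 and 16, given as a description.

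**Figure D1:**
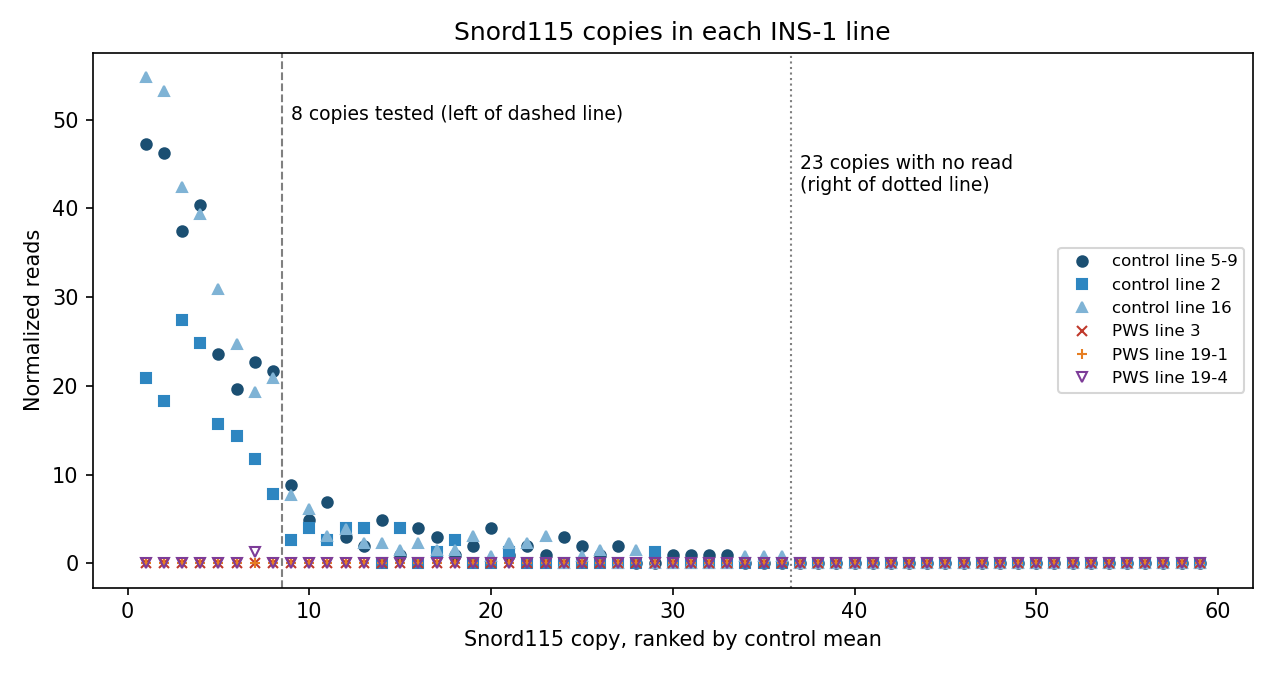
Normalized reads (vertical axis) of the 59 Snord115 copies, ranked by their control mean (horizontal axis), with 1 symbol per line. The 8 copies left of the dashed line had enough reads to be tested, the 23 right of the dotted line had no read in any line, and PWS lines lie at 0 apart from 1 read in line 19-4 at the copy of rank 7.

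Reads, as assigned, were concentrated in a small number of copies. The 8 most abundant copies held 741 of the 889 Snord115 reads of the control lines (83.4%), and the other 51 copies held 148. This share was 80.9% in line 5-9 (exact 95% interval 76.2 to 85.0), 83.7% in line 2 (76.2 to 89.6) and 85.1% in line 16 (81.4 to 88.3), and these intervals overlapped. The copies fell into a graded upper group and a low tail. Control means differed by 2.44-fold between ranks 1 and 8 and by 2.62-fold between ranks 8 and 9 (16.8 and 6.40 normalized reads).

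Among the 8 upper copies, 4 had a control mean of 34.9 to 41.0 normalized reads and 4 of 16.8 to 23.4, with line values given below in the order 5-9, 2 and 16. ENSRNOG00000058803 had 47.3, 20.9 and 54.8 normalized reads (41.0 ± 17.8, SD, n = 3), and ENSRNOG00000059948 had 46.3, 18.3 and 53.2 (39.3 ± 18.5, SD, n = 3). ENSRNOG00000058531 had 37.4, 27.5 and 42.4 normalized reads (35.8 ± 7.63, SD, n = 3), and ENSRNOG00000056852 had 40.4, 24.8 and 39.4 (34.9 ± 8.69, SD, n = 3). These 4 copies overlapped in their range over the control lines. Within each line ENSRNOG00000058803 was above ENSRNOG00000059948, with overlapping counting intervals of their shares. Otherwise the order changed between lines, so the full order is not fixed by these data. In line 2 the most abundant copy was ENSRNOG00000058531, with 21 reads or 16.3% of the family (exact 95% interval 10.4 to 23.8), whereas in lines 5-9 and 16 it was ENSRNOG00000058803, with 48 reads (14.8%, 11.1 to 19.1) and 71 reads (16.3%, 13.0 to 20.1). The share of ENSRNOG00000058803 in line 2, 12.4% (7.26 to 19.4), had a counting interval that overlapped those of both other lines.

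The lower 4 of the 8 began with ENSRNOG00000052538, at 23.6, 15.7 and 30.9 normalized reads (23.4 ± 7.59, SD, n = 3), and ENSRNOG00000059788, at 19.7, 14.4 and 24.7 (19.6 ± 5.16, SD, n = 3). ENSRNOG00000059473 was at 22.7, 11.8 and 19.3 (17.9 ± 5.57, SD, n = 3), and ENSRNOG00000061343 at 21.7, 7.84 and 20.8 (16.8 ± 7.75, SD, n = 3). Within each control line ENSRNOG00000052538 was above ENSRNOG00000059788, whereas ENSRNOG00000059788, ENSRNOG00000059473 and ENSRNOG00000061343 changed order between lines. The counting intervals of the shares of neighbors in this order overlapped in every control line. All 8 copies had their lowest control level in line 2. The copies are tandemly repeated, and their sequences were not compared here. Because the deposited values do not show how a read that aligns to several copies was placed, the level of a single copy is less certain than the total. A total counts assigned reads.

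In the PWS lines, these copies fell to at or near 0. No read of any of them was found in PWS lines 3 and 19-1, and 1 read (1.32 normalized reads) was found in line 19-4, at ENSRNOG00000059473. No PWS line overlapped any control line at any of the 8 copies. All 8 were called lower by limma on log2(normalized reads + 1) at an adjusted p under 0.1, against 1.28% of the 4292 genes tested. The 55 genes of that share include these 8 copies and 33 Snord116 copies. Of tested genes, 6.29% had all PWS lines below all control lines. Copies passed the filter (a mean of 5 normalized reads over the 6 lines) only through their control lines and so had to differ, which makes the count of 8 and their median log2 fold change of -4.85 (0.0048 over all genes tested) a description and not evidence about the array. Of the copies, 8 were also called lower by edgeR and 8 by DESeq2 (1.35% of genes tested by either), 6 by limma-voom (1.12%), 8 of 36 tested by limma without a filter (0.368%), and 9 of 16 tested with a filter at a mean of 1 (0.525%).

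With 3 reads pooled over the PWS lines as the limit, ENSRNOG00000058803 was at least 49.7-fold lower in PWS lines (fitted log2 fold change -5.28 ± 0.56 SE, limma adjusted p = 6.00e-06). ENSRNOG00000059948 was at least 47.8-fold lower (-5.20 ± 0.58, limma adjusted p = 1.27e-05), ENSRNOG00000058531 at least 41.9-fold (-5.18 ± 0.55, adjusted p = 5.89e-06) and ENSRNOG00000056852 at least 40.8-fold (-5.13 ± 0.56, adjusted p = 8.72e-06). These upper 4 copies kept their call in every alternative in which they were tested. The bounds fall with the control level, and fitted values depend on the pseudocount.

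The limits were lower for the other 4 copies, which had 55 to 76 control reads each. ENSRNOG00000052538 was at least 28.0-fold lower (log2 fold change -4.56 ± 0.71 SE, limma adjusted p = 0.000798), ENSRNOG00000059788 at least 23.2-fold (-4.33 ± 0.78, adjusted p = 0.00411) and ENSRNOG00000061343 at least 20.2-fold (-4.03 ± 0.92, adjusted p = 0.0404). For ENSRNOG00000059473, with 57 control reads and 1 PWS read, the ratio was 62.9 with an exact counting interval of 10.8 to 2527 (log2 fold change -3.79 ± 0.73, limma adjusted p = 0.00773). These 4 calls depended on which control line was in the fit. Without control line 5-9, or without control line 16, 4 copies were called instead of 8, whereas all 8 were called without control line 2. The fitted log2 fold change of ENSRNOG00000061343, the copy with the largest adjusted p of the 8, was -3.80 without line 5-9, -3.82 without line 16 and -4.48 without line 2, with a limma adjusted p of 0.893, 0.761 and 0.0837, respectively.

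The 28 detected copies below the filter had reads in control lines only. Just above the mean of 5 stood ENSRNOG00000059788, ENSRNOG00000059473 and ENSRNOG00000061343, at 9.79, 9.17 and 8.39 normalized reads over the 6 lines, and just below it ENSRNOG00000053938, ENSRNOG00000060933 and ENSRNOG00000054743, at 3.20, 2.50 and 2.10. The last 3 had 9, 2 and 10 reads, 5, 3 and 8 reads, and 7, 2 and 4 reads in lines 5-9, 2 and 16, and 0 in every PWS line. In all, 15 copies below the filter had 5 to 21 control reads, 5 had 2 to 4 and 8 had 1.

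Summed, the 51 untested copies gave 62, 21 and 65 reads in control lines 5-9, 2 and 16 (46.2 ± 17.1 normalized reads, SD, n = 3) and no read in the 3 PWS lines. As a sum they were at least 54.4-fold lower, with the same limit of 3 pooled reads. For part of this tail, single copies could not be resolved. At the control rate, 26 of the 36 detected copies, the 8 tested ones included, would give 3 reads or more over the PWS lines. For the other 10 a difference was not detectable at this depth.

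The Snord115 total was 320, 169 and 336 normalized reads in control lines 5-9, 2 and 16 (from 325, 129 and 435 reads). It was 0, 0 and 1.32 in PWS lines 3, 19-1 and 19-4. Lines 5-9 and 16 were close to each other, line 2 was lower, and no PWS line reached the level of 3 reads in its own library (1.78, 3.15 and 3.96 normalized reads). Pooled, the PWS level was 0.102% of control, with 889 control reads against 1. In the table with each family summed to 1 row, limma gave a log2 fold change of -7.64 ± 0.43 SE (adjusted p = 1.34e-09). There, 0.118% of 4246 rows were called lower. These were 5 rows, namely Snord115 and the other domain families (Snord116, Snord107, Snord64 and Mir344). By the study's design the PWS lines lack the array. Among control lines, bulk samples cannot tell fewer cells that express an RNA from less of it per cell.

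**Figure D2:**
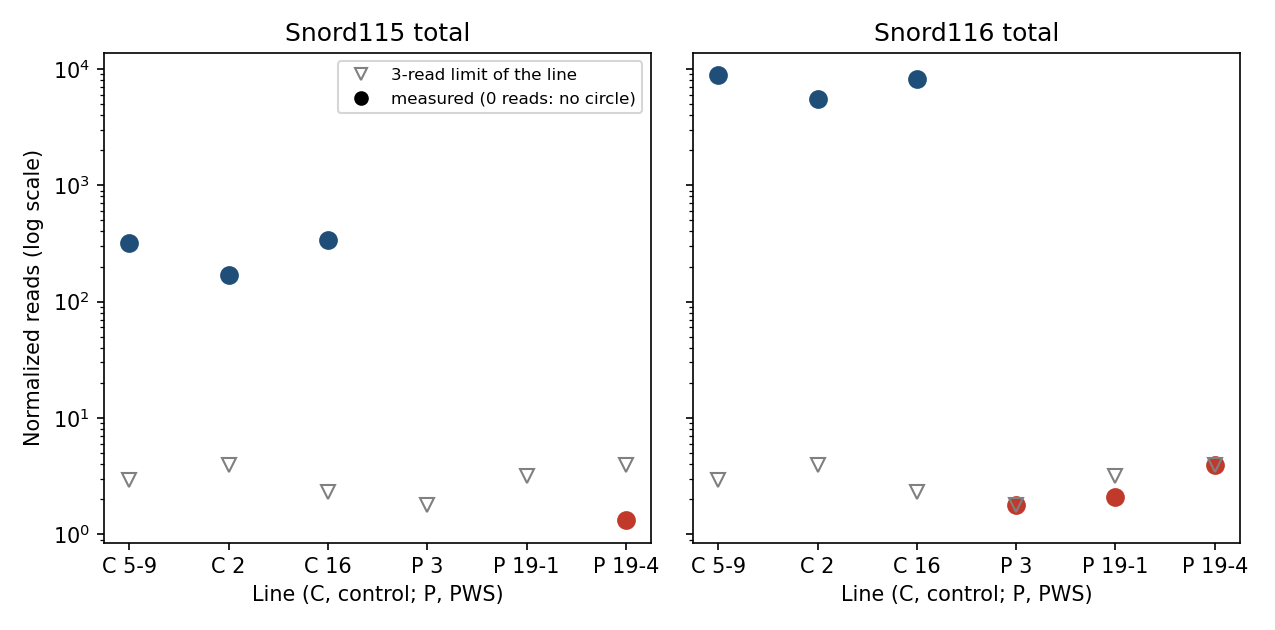
Summed normalized reads (vertical axis, log scale) of Snord115 and Snord116 in each line (C, control; P, PWS), where circles are measured totals, totals of 0 reads have no circle, and open triangles are the level of 3 reads in that library. Snord115 lies at 169 to 336 in control lines and below the 3-read level in every PWS line, under Snord116 in the same control lines.

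To compare Snord115 within its own RNA class, the total was scaled to the 103 other Snord genes of the table, from outside the PWS domain, most of which guide modification of ribosomal RNA. Per 1000000 reads of these genes, Snord115 had 1896, 911 and 1831 reads in control lines 5-9, 2 and 16, and 0, 0 and 5.97 in PWS lines 3, 19-1 and 19-4. The mean was 1546 ± 551 in control and 1.99 ± 3.45 in PWS lines (SD, n = 3 each), with an exact two-sided permutation p of 0.1, the smallest that 3 lines against 3 can give. The other Snord genes took 1.45% to 1.85% of all reads in control and 1.48% to 2.27% in PWS lines. The whole Snord115 family, summed over its 59 copies, would rank 61 among these single genes by control mean. Of their 94 tested members none was called by limma, edgeR, DESeq2 or limma-voom (0 each, with 3, 3, 1 and 3 at an unadjusted p under 0.05). Over all genes tested, these tools called 1.28%, 1.35%, 1.35% and 1.12% lower. Of the 55 genes called lower by limma, 8 were Snord115 and 33 Snord116 copies, so most of its share lay in the deleted domain. A count of 0 among the 94 other Snord genes is near this share and is no result about them. Their median log2 fold change was 0.02 (range -0.90 to 0.64). The smallest p among them was that of SNORD79, at 534 ± 29.1 normalized reads in control and 815 ± 79.0 in PWS lines (SD, n = 3 each; log2 fold change 0.61 ± 0.24 SE, limma adjusted p = 0.831).

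Snord115 was the minor of the 2 tandem arrays. In control lines 5-9, 2 and 16 there were 3.64 (exact 95% interval 3.24 to 4.06), 3.03 (2.53 to 3.62) and 4.14 (3.75 to 4.55) Snord115 reads per 100 Snord116 reads, a mean of 3.60 ± 0.552 (SD, n = 3). These came from 325 and 8939, 129 and 4251, and 435 and 10516 reads. The counting intervals of lines 2 and 16 did not overlap, while line 5-9 overlapped both. With 1 library per line this is no test of a difference between lines, and these libraries differed beyond counting error over genes in general (chi-square of 188 per gene over 2272 genes). No ratio was formed in PWS lines, which had 0 and 3, 0 and 2, and 1 and 3 reads of Snord115 and Snord116 in lines 3, 19-1 and 19-4. Counted per annotated copy, with 59 copies against 36, the mean ratio in control lines was 2.20 per 100.

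**Figure D3:**
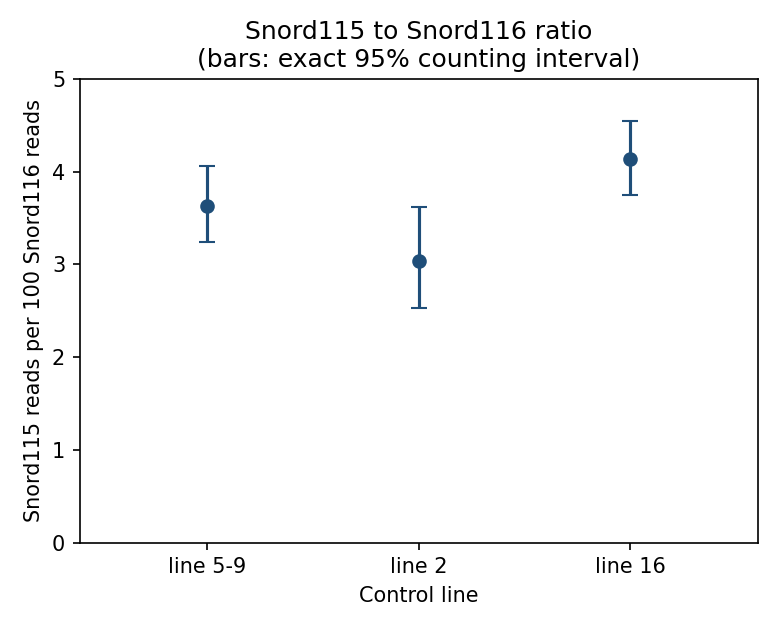
Snord115 reads per 100 Snord116 reads (vertical axis) in the 3 control lines, where points are the ratio in 1 library and bars its exact 95% counting interval. The ratio runs from 3.03 in line 2 to 4.14 in line 16, and the bars of these lines do not overlap.

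Both arrays were read unevenly over their copies, Snord115 more so. In control lines, 61.0% of Snord115 copies and 97.2% of Snord116 copies had a read, and the median copy had 0.328 and 163 normalized reads, respectively. The mean per copy was 4.66 for Snord115 and 208 for Snord116, and the most abundant copies stood at 41.0 and 624. The 4 leading Snord115 copies held 54.9% of the family, and 9 leading Snord116 copies held 53.1% of theirs. In the 5 leading copies lay 63.4% ± 2.42 (SD, n = 3) of Snord115 reads, from 60.9%, 63.6% and 65.7% in lines 5-9, 2 and 16, against 36.2% for Snord116. Because copies were ranked on the same lines, and Snord115 has both fewer reads and more annotated copies, this comparison is a description. Of the 34 Snord116 copies tested, 33 were called lower by limma, against 1.28% of all genes tested, and like those of Snord115 they passed the filter through their control lines.

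**Figure D4:**
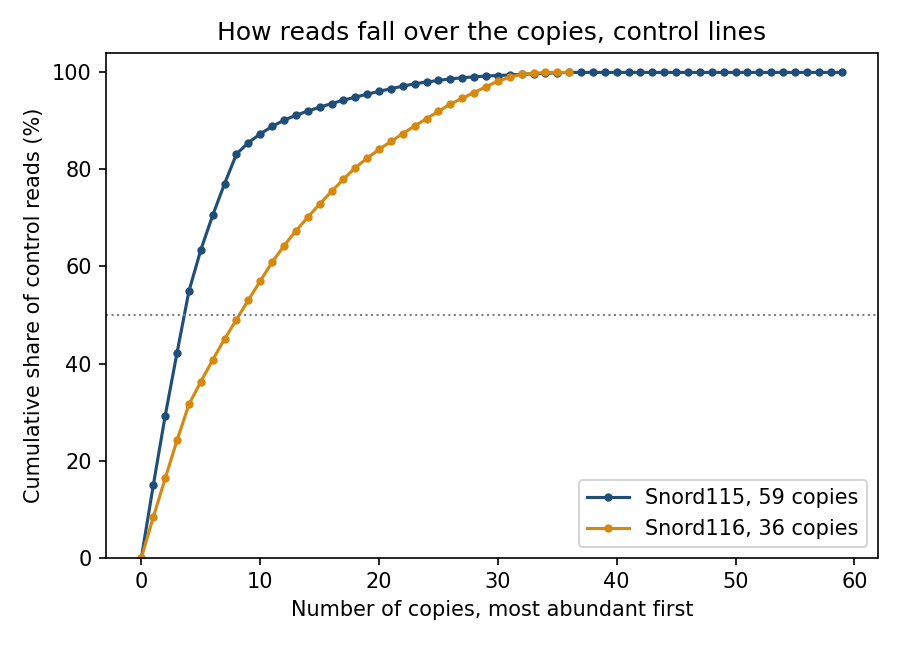
Cumulative share of control normalized reads (vertical axis, %) over the copies of each family, most abundant first (horizontal axis), for Snord115 (59 copies) and Snord116 (36 copies). The Snord115 curve reaches 83.2% at 8 copies, where the Snord116 curve is at 49.1%.

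Control line 2 had the lowest Snord115 level of the control lines. Its Snord115 total was 51.4% of the mean of the other 2 control lines, compared with 65.7% for Snord116, 72.1% for Snord107, 77.5% for Mir344 and 83.2% for Snord64 (single-copy and multi-copy small RNAs of the same domain), and 105% for the other Snord genes. Among the 4292 genes tested, 17.5% were at or below 51.4% by the same measure, and the median was 96.1%. The summed β-cell markers stood at 61.0%, a sum carried mainly by Mir7a1 (52.1%), Mir7a2 (52.6%) and Mir375 (87.5%), and 10 of the 15 with control reads were lowest in line 2, against 38.1% of all genes tested. Single markers ranged from 12.7% (Nkx6-1) to 147% (Pcsk1). These ends rest on few reads, with Nkx6-1 at 1.31 normalized reads in line 2. Pcsk1 had 2.95, 7.84 and 7.72 in lines 5-9, 2 and 16. Within the array it was spread over the copies. For the 8 upper copies the level in line 2 was 36.8% to 68.7% of that mean, and for the 51 untested copies together it was 49.4%. Over the 3 control lines the coefficient of variation was 33.6% for Snord115, 22.8% for Snord116, 24.1% for Snord107, 18.7% for Mir344, 11.0% for Snord64 and 4.98% for the other Snord genes. Line 2 was also the shallowest control library and the one with the fewest Snord115 reads (129), and the part of depth in this difference was not tested.

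The genes that serve or surround Snord115 were read only as short fragments of their mRNAs in these libraries. Of 24 listed genes (core proteins and assembly factors of C/D snoRNPs, mRNAs described elsewhere as Snord115 targets, and neighbors of the array), 22 were in the table and 4 had enough reads to be tested. None of the 4 was called by limma, edgeR, DESeq2 or limma-voom, and none had an unadjusted p under 0.05 in any of these. These tools called 1.28%, 1.35%, 1.35% and 1.12% of all genes lower, by limma mostly copies of the deleted domain. A count of 0 of 4 is near this share and is no result about these genes. Nop56, a core protein of the C/D snoRNP, averaged 10.9 normalized reads in control lines (log2 fold change 0.15 ± 0.40 SE, limma adjusted p = 0.962). Pbrm1, a chromatin remodeling subunit listed as a target, averaged 7.71 (-0.57 ± 0.54, limma adjusted p = 0.889).

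Protein-coding neighbors of the array gave few reads. Ube3a, the ubiquitin ligase gene beyond the distal cut, had 9, 8 and 12 reads in control lines 5-9, 2 and 16 and 27, 10 and 14 in PWS lines 3, 19-1 and 19-4 (log2 fold change 0.57 ± 0.38 SE, limma adjusted p = 0.864). Snurf and Snrpn, which share the bicistronic transcript at the start of the host RNA and can share reads, were named after their values were seen. They had 2, 4 and 8 reads and 1, 2 and 4 reads in the control lines, and 0 in every PWS line, too few to be tested. Htr2c, the serotonin receptor gene with the complementary stretch, had no read in any of the 6 libraries, so no change in it was detectable at this depth.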

How the data were processed

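Small RNAs of 6 clonal INS-1 lines (3 control, 3 PWS, 1 library each) were analysed from 2 deposited tables. Per the study's methods, libraries with molecular identifiers were size-selected to keep snoRNAs and read from single ends. The submitters' processing notes list UMI-tools 1.0.0, cutadapt 1.18, Bowtie2 2.3.4.2, HTSeq 0.11.2, featureCounts and DESeq2, and the build Rnor_6.0. The deposited signal of each library is in normalized reads, that is, gene reads that the authors divided by a DESeq2 size factor. The tables differ in whether a read assignable to several genes was added to each ("all", the main table here) or left out ("none"). All 59 Snord115 copies had the same reads in both. The authors also deposited a mean signal, a log2 fold change with its SE, and p-values with adjusted p-values, none of which were used.

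All values above 0 (71535) were whole multiples of 1 read (100% within a tolerance of 0.001), which gave back the reads and library totals. Genes that averaged 5 normalized reads or more over the 6 lines were tested by limma-trend (limma 3.58.1, R 4.3.3) on log2(normalized reads + 1), with genotype as the sole term, Benjamini-Hochberg adjustment over all genes tested and a threshold of 0.1, as in the study. Log2 fold changes (PWS minus control) understate changes of low genes on this scale. The fit was tested on simulated data. Ratios pool the reads of a group over its summed size factors, and intervals are exact 95% intervals. Alternatives were edgeR 4.0.16, DESeq2 1.42.0 and limma-voom (all on recovered reads), TMM or upper-quartile scaling, a pseudocount of 0.5 or 5, no filter or a minimum mean of 1 or 20, the "none" table, a 0.05 threshold, a replicate block, lines 19-1 and 19-4 averaged, and each line left out. No pair of replicate libraries differed by less than sampling noise.

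Members and gene lists were chosen with earlier results of these data known. Named were the family total, each copy reaching the mean of 5 or with a PWS read, the 3 copies on either side of that mean, the other domain families as totals, and, as none was called, the 3 genes with the highest control mean of the list of snoRNP, target and neighboring genes and the other Snord gene with the smallest p. Primers and guide spacers come from the study's oligonucleotide lists. Genomic positions of the copies were not analysed here.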

Additional observations from a re-analysis of the deposited data

How the results depend on the processing

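The Snord115 total was called lower in all 20 alternatives, with a log2 fold change from -9.67 to -5.63 and an adjusted p from 1.07e-71 to 0.0190, the latter by limma-voom. The number of copies called was 8 in the main test and at most 9, which was reached with a filter at a mean of 1 (9 of 16 tested). At a minimum mean of 20, 1 copy was called, since no more than 1 was then tested. Leaving out 1 line at a time gave 4 to 8, with 4 without control line 5-9 and 4 without control line 16, where ENSRNOG00000052538, ENSRNOG00000059788, ENSRNOG00000059473 and ENSRNOG00000061343 lost their call. Their log2 fold changes were then -4.53 and -4.34 (-4.56 with all lines), -4.31 and -4.16 (-4.33), -3.60 and -3.71 (-3.79), and -3.80 and -3.82 (-4.03), respectively. All 8 were called without control line 2. ENSRNOG00000059473 (adjusted p = 0.236) and ENSRNOG00000061343 (0.201) also lost it by limma-voom, and the latter with a pseudocount of 0.5 (0.306). No direction reversed. Other Snord genes and the list of snoRNP, target and neighboring genes gave 0 calls in all 20 alternatives. The mean ratio to Snord116 was 3.60 per 100 reads, 3.00 with copies at a mean of at least 5 only, and 2.20 per annotated copy. Per 1000000 reads of all genes, in place of other Snord genes, control exceeded PWS lines by 25.2 reads (1544 in the main scaling), a larger denominator by construction.

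The replicate numbers did not pair the lines: deviations of same-numbered lines correlated at 0.414, 0.218 and -0.0574 over 1087 genes. With the replicate block the total stayed at -7.64 (adjusted p = 3.21e-11) and 8 copies were called, and the block changed no other call. Depth limits single copies, since a copy at 0 reads in 1 library may stand at up to 3.96 normalized reads.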
